A study of Homo sapiens with 60 samples.

Results

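Herbal extracts were given for 24 h to HT29, an epithelial line from a human colon cancer, and the levels of 10 transcripts that encode enzymes of serine, one-carbon, asparagine and proline synthesis were followed. The genes were taken by symbol from a table of 60675 genes: ASNS, PHGDH, PSAT1, PSPH, SHMT2, MTHFD2, MTHFD1L, ALDH18A1, PYCR1 and CTH. All 10 entered the test, among 16484 genes that passed a filter on low counts, and the smallest median count of any of them over the libraries was 86. The cells had received hot-water extracts of Aconiti Lateralis Radix Preparata (processed aconite root, called aconite), Bupleuri Radix (bupleurum), Cimicifugae Rhizoma (cimicifuga) or Citri Unshius Pericarpium (citrus peel), or the herbal mixtures Banhasasim-tang, Yijung-tang or Bojungikgi-tang, each at 20, 100 and 500 µg/mL, called the low, medium and high dose. The control was vehicle, which the sample labels give as 0.1% DMSO and the series' design text as 2%. Vehicle and each dose of 6 extracts had 3 libraries (57 libraries in 19 groups), and Bojungikgi-tang had 1 library per dose. The design text adds that extracts with an IC20 under 500 µg/mL were given from that dose down, while every high dose here is labelled as 500 µg/mL. The study compares the transcript response between extracts and doses. HT29 is a tumour line that grows without the other cell types of the gut.

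Cells build serine from a glycolytic intermediate through PHGDH, PSAT1 and PSPH. Mitochondrial SHMT2, MTHFD2 and MTHFD1L then pass a carbon unit of serine onto folate and release it as formate for the synthesis of nucleotides. ASNS makes asparagine, ALDH18A1 and PYCR1 carry out the first and last steps of proline synthesis from glutamate, and CTH forms cysteine from cystathionine. Tumour cells are known to raise several of these enzymes when amino acids run short, and ATF4, a transcription factor made during the integrated stress response, is known to bind the promoters of several of them.

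The libraries held 10.35 to 40.05 M counts each (median 23.83 M). Every sample title, vehicle included, carries the label BatchB. The first part of each sample's code, whose meaning the labels do not give, is read here as a library set. Vehicle and Bojungikgi-tang each form a set of their own. Aconite and bupleurum share one, cimicifuga and citrus peel share another, and Banhasasim-tang and Yijung-tang share a further one. Comparisons with vehicle are therefore also comparisons between sets, whereas a high dose set against the low dose of its extract, or an extract against its set partner, is not. All 12 markers of colorectal epithelium were tested, with medians such as 6184 CPM for KRT8 and 521 CPM for EPCAM, while CDX1 had 1.16 CPM. The median was 0 CPM for COL1A2, COL3A1 and DCN of fibroblasts, PTPRC and CD3E of leukocytes and CDH5 of endothelium. The leukocyte list held LYZ at 1303 to 2242 CPM. Replicate 2 of high-dose aconite stood apart, with 86300 CPM summed over cytosolic ribosomal protein genes against 50554 and 53494 CPM in the other high-dose aconite libraries. Vehicle 1 had 70039 CPM against 57044 and 54688 CPM in the other vehicle libraries, and replicate 2 of high-dose Banhasasim-tang 79977 CPM against 52908 and 51464 CPM. These 3 libraries and replicate 2 of medium-dose bupleurum, which had 221 CPM of RN7SL2 (an RNA of the signal recognition particle), are called the 4 libraries that stood apart. The labels are silent on whether replicates came from separate cultures. The p-values and standard errors (SE) rest on the spread within groups, pooled over the 57 libraries fitted together, part or all of which may be technical. Both can be too small for a group whose replicates differ more than others, such as high-dose aconite. Values are shares of the RNA in a library, so more of a transcript per cell, less of all other RNA per cell and a shift in the mix of cells cannot be told apart.

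High-dose aconite raised 9 of the 10 transcripts over low-dose aconite (quasi-likelihood test in edgeR, p adjusted by Benjamini-Hochberg, under 0.05), against 5.81% of all tested genes called higher in that comparison. The log2 fold changes over the low dose lay between 0.44 for MTHFD1L and 2.02 for ASNS in these 9, and ALDH18A1 had -0.05. The median over the 10 genes was 0.73, and that over all genes tested 0.0054. In the same 9 genes every high-dose library lay above every low-dose library, a pattern that 9.29% of all tested genes showed. Against vehicle, all 10 were called higher at the high dose, against 8.58% of all tested genes, with a median log2 fold change of 0.68. Each of the 9 had all 3 high-dose aconite libraries above all 54 other libraries of replicated groups. The share of all tested genes with this pattern was not counted.

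**Figure D1:**
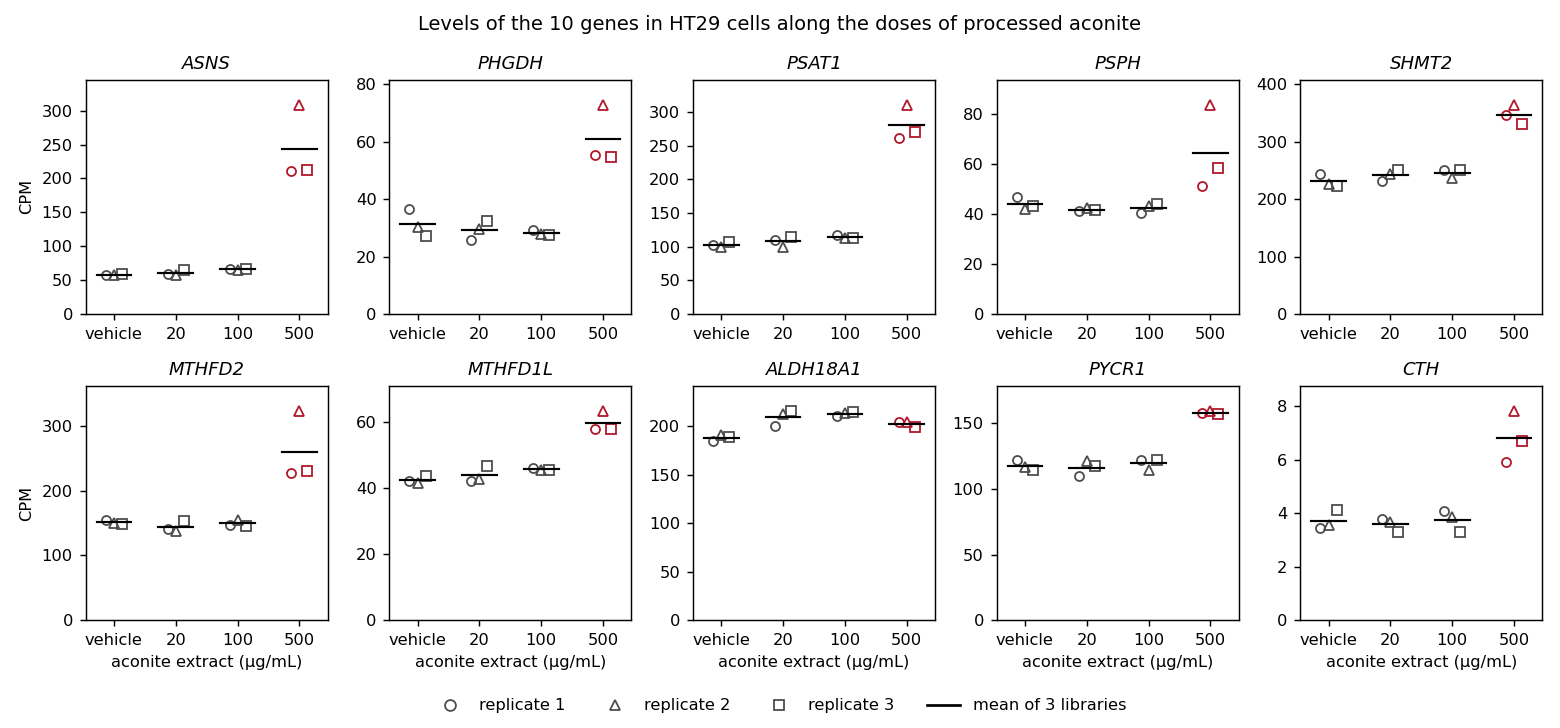
Level of each gene in CPM (vertical axes, from 0) in every library, for vehicle and 20, 100 and 500 µg/mL of aconite (horizontal axes); symbols mark replicates and lines the means of 3 libraries. The 3 libraries at 500 µg/mL (red) sit above all others shown except in ALDH18A1, and replicate 2 is the highest of these 3 libraries in all 10 genes.

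ASNS, the enzyme that transfers nitrogen from glutamine to aspartate to make asparagine (ENSG00000070669; GRCh38, chromosome 7, 97852118 to 97872542, minus strand), moved most. It had 211, 309 and 212 CPM in the high-dose aconite libraries, against 59.1, 56.9 and 64.9 CPM in the low-dose and 57.01, 57.8 and 58.3 CPM in the vehicle libraries. The high-dose values did not overlap with either group, and replicate 2 was the highest. The fold change was 4.04 over the low dose (log2 2.02 ± 0.09, SE; adjusted p = 1.3e-22) and 4.22 over vehicle (log2 2.08 ± 0.09; adjusted p = 3.3e-23). Among all tested genes ASNS ranked 5 by p-value against the low dose, and PSAT1 ranked 6. Medium-dose aconite gave 65.9, 65.3 and 65.8 CPM, all above the vehicle libraries, with a log2 fold change of 0.19 ± 0.09 that did not pass (adjusted p = 0.23). RefSeq gives ASNS 2 promoter windows, and the one at chr7:97872116-97872415 has no match to the motifs searched. The other (RefSeq, GRCh38.p14, chr7:97872359-97872658, minus strand, 250 bases before to 50 after a transcript start) holds 1 match to the core of the C/EBP-ATF response element, TGATGNAA, which ATF4 and its partners are known to bind; it is in capitals and begins 68 bases before the start.
ASNS: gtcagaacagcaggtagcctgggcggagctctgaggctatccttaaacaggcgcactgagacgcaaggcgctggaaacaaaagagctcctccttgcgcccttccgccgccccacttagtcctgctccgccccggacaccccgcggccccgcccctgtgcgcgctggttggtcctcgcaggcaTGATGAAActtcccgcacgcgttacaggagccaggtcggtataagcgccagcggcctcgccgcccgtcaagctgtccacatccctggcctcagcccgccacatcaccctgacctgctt

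The 3 genes of serine synthesis rose with ASNS. PHGDH, which oxidises the glycolytic intermediate and commits it to serine (ENSG00000092621; chromosome 1, 119648411 to 119744226, plus strand), had 55.4, 72.9 and 54.9 CPM at the high dose of aconite, against 25.8, 29.5 and 32.4 CPM at the low dose and 36.7, 30.2 and 27.1 CPM in vehicle. The lowest high-dose library lay well clear of the highest vehicle library. Its log2 fold change was 1.06 ± 0.09 over the low dose (adjusted p = 1.2e-12) and 0.96 ± 0.09 over vehicle (adjusted p = 1.4e-11). PSAT1, the aminotransferase of the middle step (ENSG00000135069; chromosome 9, 78297143 to 78330093, plus strand), had 262, 310 and 270.5 CPM at the high dose, against 109, 98.9 and 115 CPM at the low dose and 102, 100.0 and 107 CPM in vehicle. Its high-dose values lay far above every library of the other 2 groups. The fold change was 2.61 over the low dose (log2 1.38 ± 0.06; adjusted p = 2.5e-22) and 2.73 over vehicle (log2 1.45 ± 0.06; adjusted p = 3.6e-23). PSPH, the phosphatase of the last step (ENSG00000146733; chromosome 7, 56011051 to 56051604, minus strand), moved least of the 3 and varied most between replicates, with 51.4, 83.7 and 58.3 CPM at the high dose, against 41.2, 42.2 and 41.5 CPM at the low dose and 46.6, 41.9 and 43.1 CPM in vehicle. Its log2 fold change of 0.62 ± 0.09 over the low dose (adjusted p = 2.3e-06) was 0.40 without replicate 2 (adjusted p = 0.00012), and that over vehicle of 0.55 ± 0.09 (adjusted p = 1.8e-05) was 0.33 without it (adjusted p = 0.0013). The window of PSAT1 (chr9:78296875-78297174, plus strand), shown because PSAT1 changed next to ASNS in size, has no match to TGATGNAA or to the other motifs searched, the E-box CACGTG and the antioxidant response element core TGACNNNGC, on either strand.
PSAT1: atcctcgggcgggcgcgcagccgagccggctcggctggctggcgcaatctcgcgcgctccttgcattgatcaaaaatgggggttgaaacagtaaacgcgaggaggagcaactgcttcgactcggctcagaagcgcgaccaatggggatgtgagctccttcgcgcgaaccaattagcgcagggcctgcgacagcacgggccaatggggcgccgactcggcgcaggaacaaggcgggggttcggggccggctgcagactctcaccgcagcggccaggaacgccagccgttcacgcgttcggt

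The 3 mitochondrial one-carbon enzymes rose too. MTHFD2, a dehydrogenase and cyclohydrolase of folate that is known to be low in most adult tissues and high in tumours (ENSG00000065911; chromosome 2, 74198562 to 74217565, plus strand), had 228, 322 and 230.4 CPM at the high dose of aconite, against 141.5, 138 and 153 CPM at the low dose and 155, 150.2 and 148 CPM in vehicle. Replicate 2 again stood above the other high-dose libraries, which themselves lay above all others. The log2 fold change was 0.85 ± 0.08 over the low dose (adjusted p = 8.7e-12) and 0.78 ± 0.08 over vehicle (adjusted p = 7.7e-11). SHMT2, which splits serine into glycine and a folate-bound carbon (ENSG00000182199; chromosome 12, 57229327 to 57234935, plus strand), had 346, 364 and 331 CPM at the high dose, against 232, 244 and 251 CPM at the low dose and 244, 226 and 223 CPM in vehicle. Its replicates lay close together, and the log2 fold change was 0.52 ± 0.05 over the low dose (adjusted p = 2.3e-10) and 0.59 ± 0.05 over vehicle (adjusted p = 5.4e-12). MTHFD1L, which releases formate for export to the cytosol (ENSG00000120254; chromosome 6, 150865549 to 151101887, plus strand), had 57.9, 63.2 and 57.8 CPM at the high dose, against 42.1, 42.8 and 46.7 CPM at the low dose and 42.1, 41.6 and 43.5 CPM in vehicle. The groups did not overlap, with a log2 fold change of 0.44 ± 0.06 over the low dose (adjusted p = 7.5e-08) and 0.49 ± 0.06 over vehicle (adjusted p = 5.4e-09). MTHFD1L is the other gene with a match to TGATGNAA, shown in capitals within 30 bases (chr6:150866346-150866375, plus strand); the match begins 129 or 90 bases before or 25 bases after the start, depending on which of 3 nearby annotated starts is used, and the window of a further start has no match.
MTHFD1L: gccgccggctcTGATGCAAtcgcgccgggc

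The proline pair parted. PYCR1, a mitochondrial reductase of the last step (ENSG00000183010; chromosome 17, 81932384 to 81942412, minus strand), had 157, 159 and 157 CPM at the high dose of aconite, against 109, 121 and 117.5 CPM at the low dose and 122, 116 and 114 CPM in vehicle. Its high-dose libraries differed little among themselves and lay above all others, with a log2 fold change of 0.44 ± 0.06 over the low dose (adjusted p = 4.0e-07) and 0.43 ± 0.06 over vehicle (adjusted p = 7.7e-07). ALDH18A1, which starts proline and ornithine synthesis from glutamate (ENSG00000059573; chromosome 10, 95605929 to 95656706, minus strand), had 204, 204 and 199.6 CPM at the high dose, against 199.8, 213 and 215 CPM at the low dose and 184, 191 and 189 CPM in vehicle. It overlapped with the low dose (log2 fold change -0.05 ± 0.03, 95% interval -0.12 to 0.02; adjusted p = 0.41) and lay just above vehicle (0.11 ± 0.03; adjusted p = 0.031). The call over vehicle was lost without any 1 of 4 libraries, vehicle 1 or 3 or high-dose aconite 1 or 2 (highest adjusted p = 0.10). With library totals alone as scaling, which moved the median of all genes to -0.14 over vehicle and -0.15 over the low dose, ALDH18A1 had -0.04 over vehicle and -0.20 over the low dose, a call in the other direction (adjusted p = 0.00019). The window of ALDH18A1 (chr10:95656662-95656961, minus strand), shown as that of the gene that did not move with the others, has no match to TGATGNAA and 1 match to CACGTG, in capitals, 136 bases before the start.
ALDH18A1: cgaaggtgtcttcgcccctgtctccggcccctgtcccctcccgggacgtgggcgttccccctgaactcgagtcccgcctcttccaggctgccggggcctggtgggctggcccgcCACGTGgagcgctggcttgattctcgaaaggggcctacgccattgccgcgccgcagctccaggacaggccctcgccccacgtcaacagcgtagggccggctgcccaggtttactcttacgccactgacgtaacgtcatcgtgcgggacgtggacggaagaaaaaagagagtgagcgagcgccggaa

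CTH, which releases cysteine at the end of transsulfuration (ENSG00000116761; chromosome 1, 70411218 to 70439851, plus strand), had the lowest level of the 10. It had 5.91, 7.80 and 6.71 CPM at the high dose of aconite, against 3.80, 3.67 and 3.28 CPM at the low dose and 3.45, 3.56 and 4.13 CPM in vehicle. The groups did not overlap, and the log2 fold change was 0.91 ± 0.14 over the low dose (adjusted p = 7.7e-06) and 0.86 ± 0.14 over vehicle (adjusted p = 1.7e-05). CBS, the enzyme of the step before CTH, did not enter the test because its counts were too low.

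Compared per kb of exon (all annotated exons of a gene merged), vehicle levels were 49.99 ± 0.93 CPM per kb for ALDH18A1, 47.8 ± 2.4 for SHMT2, 47.0 ± 1.5 for PSAT1, 40.7 ± 1.4 for PYCR1 and 31.02 ± 0.72 for MTHFD2 (SD, n = 3 each). The other 5 lay between 1.54 ± 0.15 CPM per kb for CTH and 15.9 ± 0.9 for PSPH, with ASNS at 12.9 ± 0.1. At the high dose of aconite PSAT1 reached 128 ± 12 CPM per kb, the highest level of the 10, and ASNS 54.8 ± 12.6, beside 53.8 ± 0.7 for ALDH18A1. The merged exons of PHGDH come to 9217 bases, the length behind its 3.40 ± 0.53 CPM per kb in vehicle, and a shorter transcript in use would give a higher value.

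Of the 10 genes, 7 had promoter windows in the RefSeq table, 11 in all, of which those of ASNS and of the nearby starts of MTHFD1L overlap. TGATGNAA was found in 2 of these genes (ASNS and MTHFD1L), CACGTG in 2 (MTHFD1L and ALDH18A1) and TGACNNNGC in 1 (MTHFD2); PHGDH, PSAT1 and CTH had none of them. Per gene, with a match in any of its windows on either strand, 4.46% of the 27305 genes in the table hold TGATGNAA, 8.77% CACGTG and 16.1% TGACNNNGC. Per window, 4, 4 and 1 of the 11 hold these motifs, against 3.62%, 7.26% and 13.3% of all 35116 windows of the same length. A match is a string of letters, and whether a factor was bound was not measured here.

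When the 2 groups compared were fitted alone, which estimates the spread from 6 libraries, the fold changes were nearly the same but 4 of the 10 genes passed against the low dose and 4 against vehicle, in both cases ASNS, PHGDH, PSAT1 and SHMT2. In either direction these fits called 119 of all genes against the low dose and 185 against vehicle. Over the low dose the adjusted p was 0.0093 for ASNS, 0.0066 for PSAT1, 0.035 for PHGDH and 0.04996 for SHMT2. That of the genes that did not pass lay between 0.053 and 0.27 over the low dose, leaving ALDH18A1 aside. The disagreement of replicates beyond counting error (chi-square per degree of freedom) was taken for each pair of replicates in a group. It was highest, 78.3, between replicates 2 and 3 of high-dose aconite. Replicates 1 and 2 of that group had 77.4, and replicates 1 and 3 had 11.01. The lowest value of any pair was 2.25, between replicates 1 and 3 of medium-dose Yijung-tang. Without replicate 2 of high-dose aconite 9 genes passed over the low dose, and the median log2 fold change was 0.58. Mitochondrial ribosomal RNA made up 11.3 to 12.52% of counts in high-dose aconite libraries, 1.96 to 2.18% at the medium dose and 0.98 to 1.14% at the low dose, while mitochondrial messenger RNA made up 2.76 to 4.07%, 6.76 to 7.57% and 6.43 to 9.92% of counts at these doses. Summed markers of colorectal epithelium were 12013 to 14014 CPM at the high dose of aconite and 12055 to 13197 CPM at the low dose. Of these 12 markers, all tested, 3 were called higher and 1 lower, beside 957 and 830 of all 16484 genes tested. Markers of fibroblasts summed to 2.51 to 2.99 CPM at the high and 2.04 to 2.49 CPM at the low dose. Those of leukocytes summed to 1314 to 1953 and 1556 to 1689 CPM. Those of endothelium summed to 1.49 to 2.11 and 1.74 to 2.64 CPM. The part of these shares and levels in the changes was not tested.

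Bupleurum is in the same library set as aconite. None of the 10 passed between its high and low doses (0 genes, and 0 also in DESeq2 and limma voom and at an unadjusted p under 0.05), with 0.297% of all tested genes called in either direction there, and the log2 changes lay between -0.02 and 0.07. ASNS had 55.7, 57.02 and 61.1 CPM at the high dose of bupleurum, against 55.7, 57.3 and 61.3 CPM at its low dose. High-dose aconite over high-dose bupleurum called 9 of the 10 genes higher, against 5.91% of all tested genes, with log2 fold changes from 0.40 for PYCR1 to 2.07 for ASNS and -0.06 for ALDH18A1. That of PSPH, 0.62, was 0.40 without replicate 2 of high-dose aconite. With only these 2 groups in the fit 4 of the 10 passed, where 117 of all genes were called in either direction. The difference of the dose changes itself (high over low in aconite minus high over low in bupleurum) was called higher in 9 of the 10, against 1.01% of all tested genes. It was 2.02 ± 0.12 in log2 units for ASNS, 1.35 ± 0.09 for PSAT1, 1.08 ± 0.13 for PHGDH, 0.90 ± 0.20 for CTH and 0.83 ± 0.11 for MTHFD2 (highest adjusted p of these 0.0060). For PSPH, SHMT2, MTHFD1L and PYCR1 it lay between 0.39 and 0.58, and ALDH18A1 had -0.11 ± 0.05 (adjusted p = 0.33). That of PSPH, 0.58, was 0.36 without replicate 2 of high-dose aconite (adjusted p = 0.043). With library totals alone MTHFD1L (0.26, adjusted p = 0.078) and PYCR1 (0.24, adjusted p = 0.076) lost their calls, and ALDH18A1 was called lower (-0.27, adjusted p = 0.0027). With only the 4 groups concerned in the fit 5 of the 10 genes passed, where 92 of all genes were called in either direction.

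Below the high dose the differences between aconite and bupleurum were small. At the medium dose 0 of the 10 passed in edgeR (4 at an unadjusted p under 0.05, 0 in DESeq2 and 2 in limma voom, with 1.57% of all tested genes called). ASNS had 0.28 ± 0.09 over bupleurum in log2 units (adjusted p = 0.11) and PSAT1 0.16 ± 0.06 (adjusted p = 0.25). Without the 4 libraries that stood apart ASNS (0.28, adjusted p = 0.0034) and MTHFD1L (0.20, adjusted p = 0.027) passed. At the low dose 0 of the 10 passed, and 0 also at an unadjusted p under 0.05, in DESeq2 and in limma voom, with 0.127% of all tested genes called.

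**Figure D2:**
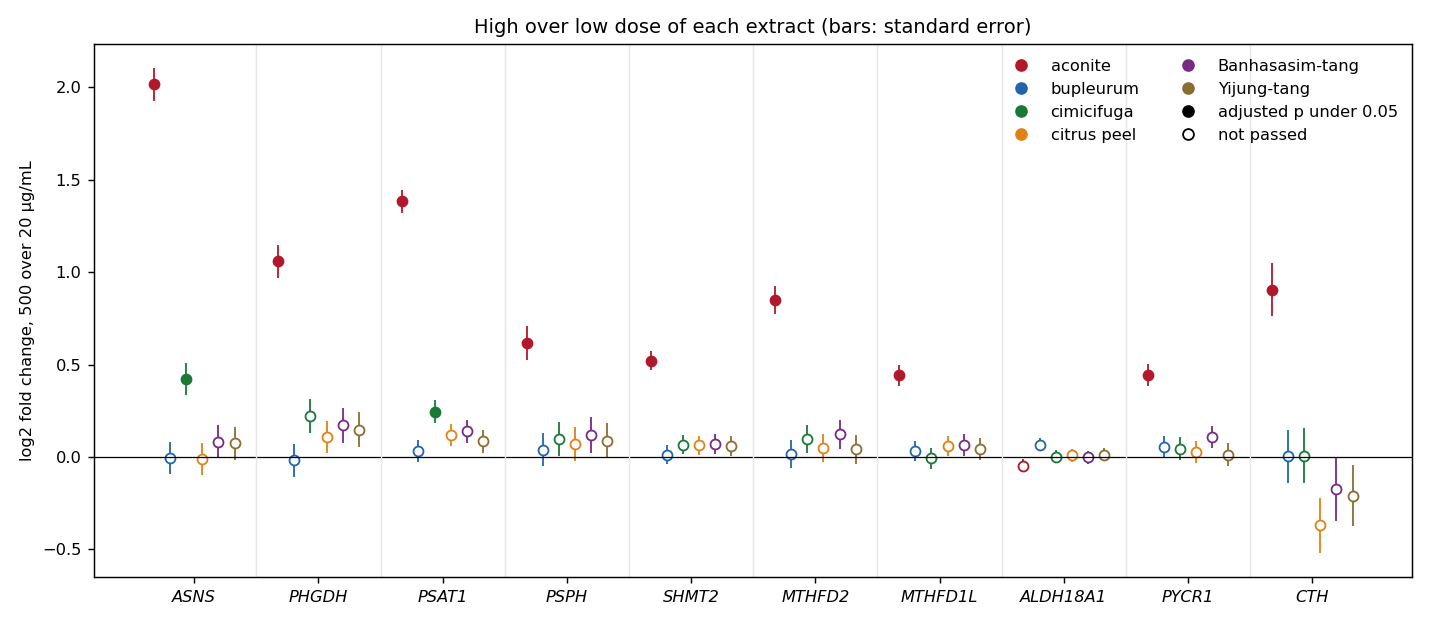
Log2 fold change of 500 over 20 µg/mL (vertical axis) for each gene (horizontal axis) and each of 6 extracts (colours), with bars of 1 standard error; filled points passed an adjusted p of 0.05. Aconite stands between 0.44 and 2.02 in all genes but ALDH18A1, ASNS and PSAT1 passed in cimicifuga, and all other points are open.

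Cimicifuga raised ASNS and PSAT1 by less. ASNS had 78.7, 74.2 and 76.2 CPM at the high dose of cimicifuga, against 58.3, 59.8 and 53.3 CPM at its low dose and 57.01, 57.8 and 58.3 CPM in vehicle. These 3 libraries were the highest of any outside high-dose aconite by group mean (76.4 ± 2.3 CPM, SD, n = 3), followed by medium-dose aconite (65.7 ± 0.3 CPM), and did not overlap with its low dose or vehicle. Its log2 fold change was 0.42 ± 0.09 over the low dose (adjusted p = 0.0040), 0.41 ± 0.09 over vehicle (adjusted p = 0.0046) and 0.50 ± 0.09 over high-dose citrus peel (adjusted p = 0.00027). PSAT1 had 117, 117 and 117 CPM at the high dose of cimicifuga, against 100.8, 100.0 and 95.2 CPM at its low dose. The log2 fold change of 0.25 ± 0.06 (adjusted p = 0.030) lost its call without any 1 of the 6 libraries compared, and that of ASNS without replicate 3 of the low dose (adjusted p = 0.074). PHGDH, the next in size, had 0.22 ± 0.09 and did not pass in edgeR (adjusted p = 0.52), but passed in limma voom (0.20, adjusted p = 0.021) and in edgeR without the 4 libraries that stood apart (0.22, adjusted p = 0.017).

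In all, 2 of the 10 were called higher at the high than at the low dose of cimicifuga in edgeR, against 0.419% of all tested genes (2 in DESeq2 and 3 in limma voom). Over vehicle 1 (ASNS) rose at the high dose, against 0.813% of all genes. At the medium dose 0 passed (1 at an unadjusted p under 0.05, 0 in DESeq2 and limma voom). There edgeR called 0.0303% of all genes, with 1058 at an unadjusted p under 0.05, 19 in DESeq2 and 653 in limma voom. At the low dose 0 passed (1 at an unadjusted p under 0.05, 0 in DESeq2 and limma voom), and there edgeR called 0% of all genes, with 1387 at an unadjusted p under 0.05, 4 in DESeq2 and 784 in limma voom. Over high-dose citrus peel 1 gene (ASNS) passed, against 0.637% of all genes called higher. The difference of the dose changes between cimicifuga and citrus peel was 0.43 ± 0.12 for ASNS and did not pass (adjusted p = 0.26). With only these 4 groups in the fit it passed (adjusted p = 0.0025). With all groups in the fit 0 of the 10 were called (1 at an unadjusted p under 0.05, 0 in DESeq2, 1 in limma voom). There edgeR called 0.115% of all genes, with 697 at an unadjusted p under 0.05, 37 in DESeq2 and 278 in limma voom.

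None of the 10 passed the test in citrus peel. Over vehicle 0 passed at the high dose (2 at an unadjusted p under 0.05, 0 in DESeq2, 1 in limma voom), 0 at the medium dose (1, 0 and 0 by the same measures) and 0 at the low dose (0, 0 and 1). At these doses 0.0243%, 0% and 0.00607% of all genes were called in edgeR. By the other measures, in the same order, all genes gave 1431, 31 and 1113 at the high dose. They gave 1607, 9 and 1708 at the medium dose and 1467, 18 and 2206 at the low dose. Between its high and low doses 0 passed (1, 0 and 0). There edgeR called 0.0667% of all genes, and the other measures 851, 38 and 633 genes. The gene farthest from vehicle was CTH at the high dose, with 2.98, 2.48 and 2.71 CPM in citrus peel against 3.45, 3.56 and 4.13 CPM in vehicle. All 3 libraries lay below vehicle, with a log2 fold change of -0.45 ± 0.15 (adjusted p = 0.36 in edgeR, and 0.028 in limma voom). Over the low dose of citrus peel CTH had -0.37.

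**Figure D3:**
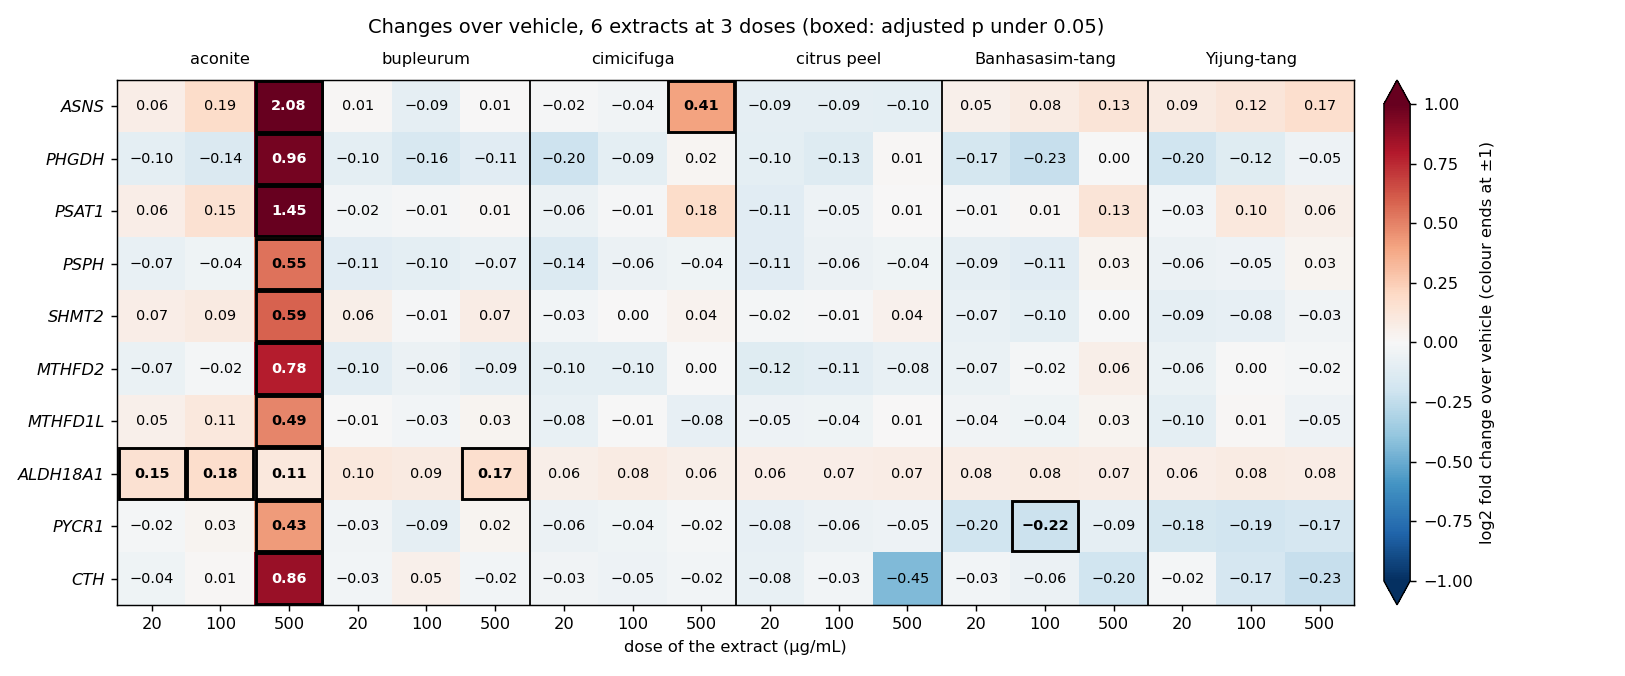
Log2 fold change over vehicle for each gene (rows) in 6 extracts at 20, 100 and 500 µg/mL (columns), with the value in each cell, colours from blue (lower) to red (higher) that end at ±1, and boxes where the adjusted p was under 0.05. The column of aconite at 500 µg/mL is boxed throughout, and outside it the boxes are ALDH18A1 in 3 columns, ASNS in cimicifuga and PYCR1 in Banhasasim-tang.

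Outside high-dose aconite the calls over vehicle were few and fell on ALDH18A1, ASNS and PYCR1. ALDH18A1 was the 1 gene called higher over vehicle at the medium dose of aconite (0.18 ± 0.03, adjusted p = 0.00061; 2.47% of all genes called higher), at its low dose (0.15; adjusted p = 0.012; 0.698% of all genes) and at the high dose of bupleurum (0.17 ± 0.03, adjusted p = 0.0042; 0.746% of all genes). It had 211, 214 and 214 CPM at the medium dose of aconite and 205, 213 and 217 CPM at the high dose of bupleurum, against 184, 191 and 189 CPM in vehicle. Vehicle had the lowest mean of all 19 groups for this gene, and every one of the 18 comparisons, which share the vehicle libraries, was above 0. The call at the low dose of aconite was lost without vehicle 1 or without low-dose replicate 2 or 3 (highest adjusted p = 0.11). The call in bupleurum was lost without its replicate 3 (adjusted p = 0.052). RN7SL2 was under 20 CPM in the vehicle libraries and part of the set of cimicifuga and citrus peel and above 20 CPM elsewhere; with a term for this split, these 2 calls and that at the high dose of aconite were lost (adjusted p = 0.13, 0.078 and 0.15). At the medium and low doses of bupleurum 0 of the 10 passed (1 and 1 at an unadjusted p under 0.05, 1 and 0 in DESeq2, 1 and 1 in limma voom). In edgeR 0.406% and 0.801% of all genes were called. Of all genes, 2860 and 1843 had an unadjusted p under 0.05, and 268 and 177 passed in DESeq2 and 2224 and 2190 in limma voom.

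PYCR1 leaned the other way against vehicle in Banhasasim-tang and Yijung-tang. These mixtures share a library set that does not hold vehicle, so extract and set cannot be told apart here. It had 103, 96.04 and 104 CPM at the medium dose of Banhasasim-tang, against 122, 116 and 114 CPM in vehicle, with no overlap. Its log2 fold change of -0.22 (adjusted p = 0.041) was the 1 call in this comparison, against 1.72% of all genes called lower, and it was lost without any 1 of 5 of the 6 libraries compared (highest adjusted p = 0.33). In the other 5 groups of Banhasasim-tang and Yijung-tang PYCR1 had -0.20 to -0.09 and did not pass in edgeR. In limma voom it was called lower in all 5 (adjusted p from 0.0013 to 0.023), and in DESeq2 at the low dose of Banhasasim-tang (0.028) and the medium dose of Yijung-tang (0.037). In Banhasasim-tang 0 of the 10 passed at the high dose (2 at an unadjusted p under 0.05, 0 in DESeq2, 2 in limma voom) and 0 at the low dose (2, 1 and 1). In edgeR 1.21% and 2.92% of all genes were called at these doses. By the other measures, in the same order, all genes gave 2133, 255 and 3171 at the high dose and 3327, 770 and 2869 at the low dose. In Yijung-tang 0 passed at the high dose (2, 0 and 2), 0 at the medium dose (2, 1 and 2) and 0 at the low dose (2, 0 and 1). At these doses edgeR called 1.14%, 1.64% and 1.51% of all genes. The other measures gave 2256, 313 and 1761 genes at the high dose, 3085, 598 and 3581 at the medium dose and 3038, 550 and 3226 at the low dose. Between the high and low doses 0 passed in Banhasasim-tang (1, 0 and 0) and 0 in Yijung-tang (0, 0 and 0). There edgeR called 0.231% and 0.103% of all genes. The other measures gave 3389, 195 and 166 genes in Banhasasim-tang and 959, 31 and 119 in Yijung-tang. Between the mixtures at the high dose 0 passed (0, 0 and 0; 0.346% of all genes), and 0 in the difference of their dose changes (0, 0 and 0), where edgeR called 0% of all genes, with 1062 at an unadjusted p under 0.05, 3 in DESeq2 and 13 in limma voom.

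Bojungikgi-tang had 1 library per dose, with 18.26, 12.75 and 13.72 M counts from low to high dose, so no test was made and no replicate check exists. ASNS had 60.6 CPM at the low dose (95% exact binomial interval 57.1 to 64.2 CPM), 56.4 at the medium dose (52.4 to 60.7 CPM) and 60.1 at the high dose (56.1 to 64.3 CPM), against 57.01 to 58.3 CPM in the vehicle libraries. The intervals cover counting error only. The median log2 ratio of the 10 genes to the vehicle mean was -0.02 at the low, -0.06 at the medium and -0.04 at the high dose. CTH had 2.72 CPM at the high dose (1.93 to 3.74 CPM), an interval that takes in part of the vehicle range of 3.45 to 4.13 CPM.

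Outside high-dose aconite the 10 genes did not vary as a block. Over the 54 other libraries of replicated groups, Pearson's r of log2 levels between pairs of them ran from -0.34 to 0.84 with a median of 0.13 over 45 pairs, and 6 pairs had r over 0.5. SHMT2 and PYCR1 had 0.84, ASNS and PSAT1 0.80, and PSAT1 and MTHFD2 0.68. The points share library sets, depth and scaling. The highest and lowest group means outside high-dose aconite were 76.4 and 53.8 CPM for ASNS, 117 and 95.2 CPM for PSAT1, 246 and 216 CPM for SHMT2, and 213 and 188 CPM for ALDH18A1, the lowest of them being vehicle.

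The genes next to these enzymes in their pathways were counted in aconite, high over low dose. There 957 of all 16484 genes tested were called higher (5.81%) and 830 lower. The count of each list below is to be set beside these. Genes named from the lists were partly picked for a small adjusted p in high-dose aconite over vehicle. That comparison uses the same high-dose libraries, so their p-values over the low dose are not independent of the choice. Of 24 other folate and one-carbon genes, 23 were tested, and 3 rose and 1 fell between the low and high doses of aconite, with a median log2 fold change of 0.11 against 0.0054 over all genes. SHMT1 and MTHFD1, the cytosolic counterparts of the mitochondrial enzymes, had -0.09 ± 0.06 (adjusted p = 0.35) and 0.03 ± 0.06 (adjusted p = 0.77). MTRR, which reactivates methionine synthase, rose by 0.24 ± 0.05 (adjusted p = 0.00013) and MAT2A, which makes S-adenosylmethionine, by 0.18 ± 0.05 (adjusted p = 0.022), while ALDH1L1, which consumes formyl-folate, had 0.19 ± 0.10 (adjusted p = 0.21).

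Of 17 other asparagine, aspartate, glutamate and proline genes, 16 were tested, and 5 rose and 1 fell, with a median of 0.09. ASS1, which makes argininosuccinate from citrulline and aspartate, rose by 1.07 ± 0.08 (adjusted p = 2.3e-14), with 29.3, 37.0 and 30.6 CPM at the high dose of aconite against 12.8, 16.1 and 17.0 CPM at the low dose. GPT2, a mitochondrial alanine aminotransferase, rose by 0.59 ± 0.05 (adjusted p = 2.8e-12), and GLUL, glutamine synthetase, fell by 0.36 ± 0.04 (adjusted p = 1.7e-08). The cytosolic reductase PYCR3 had -0.04 ± 0.09 (adjusted p = 0.81). Of 10 transsulfuration and hydrogen sulfide genes, 8 were tested, and 2 rose and none (0) fell, with a median of 0.14. They were GCLC and GCLM, the subunits of the enzyme that starts glutathione synthesis from cysteine, with 0.70 ± 0.05 (adjusted p = 7.0e-15) and 0.73 ± 0.07 (adjusted p = 2.7e-10), while CSAD, of taurine synthesis, had 0.07 ± 0.12 (adjusted p = 0.76).

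The lists whose medians lay nearest to that of the 10 were ATF4 regulators and effectors (0.78), amino acid transporters (0.42) and cytosolic aminoacyl-tRNA synthetases (0.38). Of 20 genes of the first, 18 were tested, and 12 rose and 1 fell in aconite, high over low dose. CHAC1, which degrades glutathione, had 22.6, 18.01 and 21.4 CPM at the high dose against 2.95, 2.87 and 2.91 CPM at the low dose, a log2 fold change of 2.83 ± 0.14 (adjusted p = 6.3e-20). DDIT4, an inhibitor of mTORC1 signalling, rose by 1.89 ± 0.08 (adjusted p = 8.1e-23), the pseudokinase TRIB3 by 1.07 ± 0.07 (adjusted p = 3.5e-15), DDIT3 (CHOP) by 0.88 ± 0.12 (adjusted p = 8.4e-07) and the ATF4 transcript itself by 0.68 ± 0.06 (adjusted p = 2.6e-11).

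All 14 transporters were tested, and 8 rose and none (0) fell. SLC7A11, the cystine importer, rose by 1.22 ± 0.09 (adjusted p = 2.3e-14), SLC1A4, which carries serine and other neutral amino acids, by 1.06 ± 0.09 (adjusted p = 3.9e-12), and SLC38A2, which carries alanine and other small neutral amino acids, by 0.45 ± 0.06 (adjusted p = 4.9e-08). SLC6A9, a glycine transporter named after its values were seen, had the highest change of the list (2.91 ± 0.33, adjusted p = 4.5e-09) from a low level, a mean of 4.27 CPM at the high dose against 0.57 CPM at the low dose. All 20 synthetases were tested, and 14 rose and none (0) fell; GARS1, WARS1 and YARS1, for glycine, tryptophan and tyrosine, rose by 0.67 ± 0.04, 0.59 ± 0.05 and 0.49 ± 0.04 (highest adjusted p of the 3, 1.8e-13). Of 10 genes of the MYC and NRF2 controls all were tested, and 6 rose and none (0) fell, with a median of 0.29. TXNRD1, HMOX1 and NQO1, known targets of NRF2, rose by 0.51 ± 0.05, 1.199 ± 0.089 and 0.86 ± 0.09 (highest adjusted p of the 3, 2.1e-09), while MYC itself, named after its values were seen, had 0.15 ± 0.06 (adjusted p = 0.097). The 78 tested cytosolic ribosomal protein genes had a median of 0.26, with 6 higher and none (0) lower, beside 5.81% of all tested genes called higher.

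**Figure D4:**
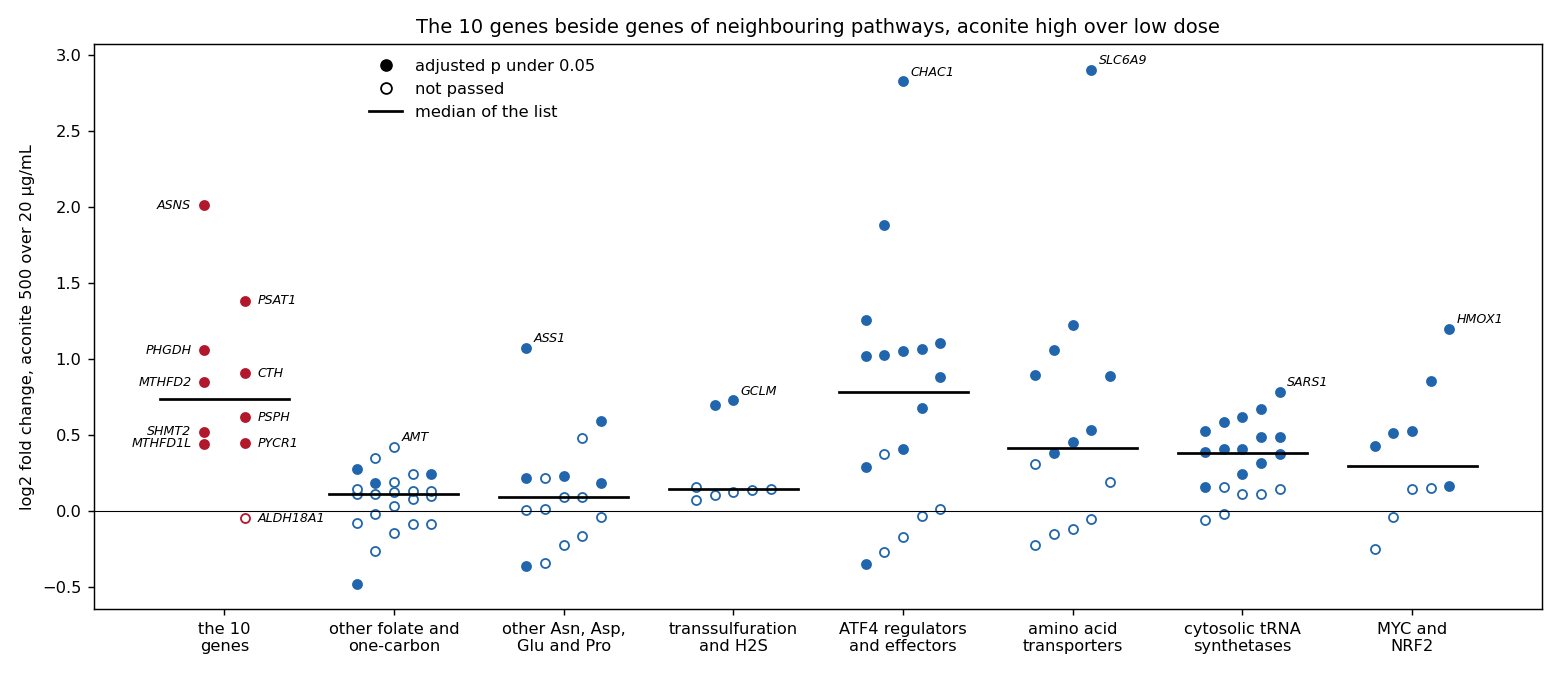
Log2 fold change of aconite, 500 over 20 µg/mL (vertical axis), for each tested gene of the 10 (red) and of 7 lists of neighbouring pathways (blue); filled points passed an adjusted p of 0.05 and lines are medians. The median of the 10 genes is 0.73, beside 0.78 for ATF4 regulators and effectors and 0.11 for other folate and one-carbon genes.

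The transcripts most like the mean of the 10 over the 19 group means, among 12053 others with a mean log2 CPM of at least 1, were SARS1 (Pearson's r = 0.989), GPT2 (0.980), GARS1 (0.976), CHAC1 (0.976), DDIT4 (0.976), SLC1A4 (0.965), ATF4 (0.964) and LAT2 (0.961). Without high-dose aconite r over the other 18 means was 0.81 for SARS1, 0.73 for LAT2 and ATF4, 0.71 for CHAC1, 0.54 for GPT2 and GARS1, 0.36 for DDIT4 and 0.26 for SLC1A4.

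Near-identical copies took few reads. The pseudogenes of ASNS, PSAT1, PSPH and MTHFD2 in the table had at most 7 counts in any library. SLC4A5, which overlaps exons of MTHFD2 on the other strand, had a median of 13 counts, against 3541.5 for MTHFD2, and AC079781.5, which shares exon bases with ASNS on the same strand, has no row in the table. MYADML2, which overlaps exons of PYCR1 on the same strand, had a median of 3.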

How the data were processed

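RNA of HT29 cells was sequenced as paired reads of 100 bases on an MGI instrument after a directional library kit that keeps strand, per the labels' protocols. Per the submitters' processing notes, the tools were RSEM 1.3.3, STAR 2.7.3a, Trim Galore 0.6.5 and FastQC 0.11.9, with GRCh38/hg38. The authors deposited RSEM expected counts per gene, of which 8.68% were not whole and were rounded here. Of 270 columns in the table, 60 were used and 210, which match no sample given here, were not.

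Group means of 57 libraries in 19 groups were fitted together in edgeR 4.0.16 (R 4.3.3) after filterByExpr by group and TMM scaling. This left 16484 genes for quasi-likelihood tests in 32 comparisons, with Benjamini-Hochberg adjustment over all genes within each and a threshold of 0.05. CPM use TMM-scaled library sizes. The fit was tested on simulated data with known fold changes. The simulation gave all genes and libraries 1 common spread beyond counting error. It therefore cannot show how the fit handles a noisier group such as high-dose aconite. Alternatives used DESeq2 1.42.0, limma 3.58.1 (voom with quality weights), other scalings, filters and subsets of libraries. A replicate number paired the samples in 0 of 29 comparisons checked (r over 0.1 in every pair needed). Correlations used a pseudocount of 1 CPM.

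The 10 genes and all lists were chosen with earlier results of these data known. The text names all 10, up to 3 genes per list with the smallest adjusted p in high-dose aconite against vehicle, ATF4, DDIT3, TRIB3, CHAC1, SLC7A11, SHMT1, MTHFD1, PYCR3 and CBS, and the 8 transcripts most like the mean of the 10; 1 further gene of that rule is not reported here. Gene coordinates are those of GENCODE 29, and promoter windows those of RefSeq. Total counts of 10.35 to 40.05 M per library set the precision, and PCR reads without molecular identifiers are not independent molecules.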

Additional observations from a re-analysis of the deposited data

Results flagged for a closer look

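The change from low to high dose differed between aconite and bupleurum, extracts of the same library set, by a test of the difference itself (edgeR quasi-likelihood test, Benjamini-Hochberg adjusted over 16484 genes). The difference, aconite minus bupleurum in log2 units, was 2.02 for ASNS, 1.35 for PSAT1, 1.08 for PHGDH, 0.90 for CTH and 0.83 for MTHFD2. It was 0.58 for PSPH (adjusted p = 0.0057), 0.51 for SHMT2, 0.41 for MTHFD1L and 0.39 for PYCR1. Without replicate 2 of high-dose aconite that of PSPH was 0.36 (adjusted p = 0.043). With library totals alone MTHFD1L had 0.26 and PYCR1 0.24, and neither passed (adjusted p = 0.078 and 0.076). All 3 high-dose aconite libraries lay above the 54 other libraries of replicated groups in each of these 9 genes, a pattern whose share among all tested genes was not counted.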

How the results depend on the processing

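With aconite, 9 of the 10 genes were called higher at the high dose than at the low dose, than in high-dose bupleurum and in the difference of dose changes whichever single library was left out (lowest 9, highest 9 in each), and 9 to 10 over vehicle. A replicate block, whose numbers do not pair the samples, left all counts within 1.5 times, with 10 over vehicle and 9 over the low dose. Fitting the compared groups alone, the counts were 4 for high-dose aconite over vehicle, 4 over its low dose, 4 over bupleurum and 5 in the difference of dose changes, where 185, 119, 117 and 92 of all genes were called. They were 0 for medium- and low-dose aconite, high-dose bupleurum and medium-dose Banhasasim-tang over vehicle, 2 for cimicifuga over citrus peel and 1 in their difference of dose changes. With library totals alone ALDH18A1 had -0.040 for high-dose aconite over vehicle, a change of sign (adjusted p = 0.52). In the difference of dose changes between aconite and bupleurum MTHFD1L (0.26, adjusted p = 0.078) and PYCR1 (0.24, adjusted p = 0.076) lost their calls and ALDH18A1 was called lower (-0.27, adjusted p = 0.0027), and PYCR1 in high-dose aconite had 0.28 over vehicle, 0.29 over the low dose and 0.26 over bupleurum, and MTHFD1L had 0.28 over the low dose, all still called. The counts were 2 for high-dose cimicifuga and 0 for medium-dose Banhasasim-tang over vehicle. Without a filter on low counts they were 0 for medium- and low-dose aconite, high-dose bupleurum and medium-dose Banhasasim-tang, 1 for cimicifuga high over low dose and 1 for the difference between cimicifuga and citrus peel. With a term for RN7SL2 they were 0 for low-dose aconite and high-dose bupleurum and 1 (PYCR1, lower) for low-dose Banhasasim-tang and each dose of Yijung-tang. Without vehicle 1, high-dose aconite 2, high-dose Banhasasim-tang 2 and medium-dose bupleurum 2 they were 1 for low-dose Banhasasim-tang, 2 for aconite over bupleurum at the medium dose, 2 for cimicifuga over citrus peel and 1 for their difference. The numbers of all genes called in these comparisons are not given for these scalings, filters, terms and subsets. The same holds for the cimicifuga comparisons fitted alone. Whether calls were gained or lost beyond those of all genes can therefore not be read from these counts. Over vehicle, limma voom gave 5 for medium-dose aconite and 2, 1 and 1 for high-, medium- and low-dose bupleurum. It gave 2 for high-dose cimicifuga and 1 and 1 for high- and low-dose citrus peel. It gave 2, 3 and 1 for high-, medium- and low-dose Banhasasim-tang and 2, 2 and 1 for Yijung-tang. Of all 16484 genes, limma voom called 3872 for medium-dose aconite and, in the same order of doses, 3225, 2224 and 2190 for bupleurum. It called 3086 for high-dose cimicifuga and 1113 and 2206 for citrus peel. For the mixtures it called 3171, 3870 and 2869 in Banhasasim-tang and 1761, 3581 and 3226 in Yijung-tang. Of the 10 genes, limma voom also gave 2 for aconite over bupleurum at the medium dose. It gave 2 for cimicifuga over citrus peel and 1 for their difference. In these 3 comparisons 850, 776 and 278 of all genes were called. DESeq2 gave 1 for medium-dose bupleurum, low-dose Banhasasim-tang and medium-dose Yijung-tang, where 268, 770 and 598 of all genes were called. Leaving out 1 library gave 0 to 1 for low-dose aconite and high-dose bupleurum, 0 to 2 for medium-dose and 0 to 1 for low-dose Banhasasim-tang over vehicle, 0 to 1 for cimicifuga and 0 to 1 for Banhasasim-tang, high over low dose. Beyond fewer libraries or genes in a fit, the cause was not tested. With 3 libraries a group and a median of 86 counts, CTH is the least precise of the 10.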
